A study of Mus musculus with 20 samples.

Results

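The death receptors are cell surface proteins of the tumor necrosis factor (TNF) receptor family that can start apoptosis when their ligand binds. The 10 genes described are 5 receptors of this family (Tnfrsf10b, Fas, Eda2r, Tnfrsf1a and Tnfrsf1b), 3 ligands (Tnfsf10, Fasl and Tnf), the adaptor Fadd and the initiator caspase Casp8. They were taken by gene symbol from both raw count tables, and all 10 were found among the 55486 genes of each table. RNA was sequenced in bulk from bone marrow and kidney of C57BL/6 mice, which were 10 weeks old at the start. Per the paper, male and female mice were used, and the sex of each library was not assigned here. Mice of the groups labelled oxa were injected intraperitoneally with oxaliplatin, a platinum drug that crosslinks DNA, at 10 mg/kg in 5% dextrose over 8 weeks, and mice of the groups labelled ctrl received 5% dextrose alone, called vehicle here. Each of the 4 combinations of tissue and treatment had 5 libraries, and within a tissue each came from a mouse of its own. Whether a kidney and a marrow library share a mouse is not given in the sources used here. Marrow was taken from the leg bones (tibia and femur) when 6 days had passed since the last injection. No transgene or deletion was used. The marrow libraries hold everything that left the bone shaft, and the collection of the kidneys is not described in the sources used here.

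Fas ligand (encoded by Fasl), TRAIL (encoded by Tnfsf10) and TNF bind Fas, Tnfrsf10b and Tnfrsf1a in turn, and each of these receptors carries a death domain on its inner side. Fas and Tnfrsf10b recruit the adaptor Fadd directly, Tnfrsf1a does so through Tradd and Ripk1, and Fadd in turn recruits Casp8, which Cflar (cFLIP) restrains. Tnfrsf1b, also a TNF receptor, and Eda2r, the receptor for the A2 form of ectodysplasin (encoded by Eda), have no death domain and signal through TRAF proteins. Fas, Tnfrsf10b and Eda2r are known transcriptional targets of p53, the factor that responds to DNA damage.

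Total counts per library ranged from 30660153 to 41140527 in bone marrow and from 24393007 to 30925430 in kidney. Levels are given as CPM, the counts of a gene scaled to a common library total, after TMM scaling, a correction of library size for composition, and a count of 3 corresponded to 0.0668 to 0.0975 CPM in marrow and 0.0900 to 0.130 CPM in kidney, which covers counting error only. The tissues matched their labels: summed kidney epithelial markers were 16433 to 20379 CPM in kidney and 2.88 to 14.6 CPM in marrow. Summed Y-linked genes were 155.6 to 173 CPM in vehicle marrow and 99.15 to 165.1 CPM in treated marrow. In kidney they were 82.25 to 105.8 CPM in vehicle and 77.52 to 110.5 CPM with oxaliplatin. Cell type markers differed between the treatments. In marrow all 8 erythroid markers fell, from a sum of 23589 to 41305 CPM in vehicle to 3104 to 7648 CPM with oxaliplatin, and all 6 adipocyte markers rose, from 76.2 to 143 CPM to 492 to 2461 CPM. Of the B cell markers in marrow, 6 of 8 fell, from 278 to 487 CPM to 77.3 to 105 CPM. Endothelial sums were higher with oxaliplatin in every library of both tissues, at 212 to 266 CPM and 273 to 523 CPM in marrow (3 of 6 markers called up) and at 265 to 280 CPM and 318 to 450 CPM in kidney (2 of 6 called up). In these bulk libraries, fewer cells of a type and less RNA per cell cannot be told apart.

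Eda2r and Tnfrsf10b rose in both tissues, Tnfsf10 fell in kidney, and the other members were not called in either. A gene was called at an adjusted p under 0.05 in edgeR's quasi-likelihood test, adjusted by Benjamini-Hochberg over all genes tested, together with a fold change beyond 1.5. In marrow, 2 of the 10 members were called, both up, where 23.3% of all 22363 tested genes were called and 11.6% were called up. In kidney, 8 members passed the filter on low counts, of which 2 were called up and 1 down, where 11.5% of all 19293 tested genes were called, 7.68% up and 3.81% down. For calls of both directions together, the marrow share was no higher than that of all genes. By adjusted p alone, 3 members passed in marrow (33.1% of all genes) and 5 in kidney (29.4%). The median log2 fold change of the members was 0.10 in marrow, beside -0.04 over all genes, and 0.09 in kidney, beside 0.02 over all genes. Groups did not overlap for 3 of 10 members in marrow (24.9% of all tested genes) and for 5 of 8 in kidney (20.7%).

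**Figure D1:**
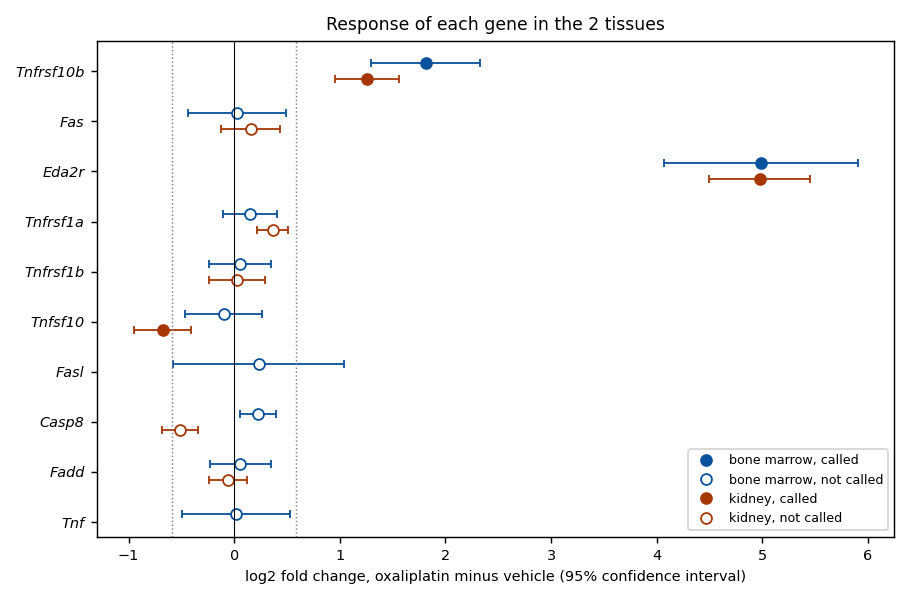
Log2 fold change of oxaliplatin against vehicle for each gene (x axis) with its 95% confidence interval, in bone marrow and kidney, 5 libraries per group. Filled points were called, dotted lines mark a fold change of 1.5 either way, and genes below the count filter have no point; Eda2r lies at 4.99 and 4.98, and Tnfrsf10b at 1.81 and 1.26.

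Eda2r (ENSMUSG00000034457, chrX:97333840-97377216, minus strand, GRCm38) had the largest change of the members. In vehicle marrow it was at 0.253, 0.116, 0.599, 0.171 and 0.130 CPM in replicates 1 to 5, that is 4 to 19 counts per library. With oxaliplatin it was at 8.44, 8.06, 10.1, 9.90 and 4.10 CPM, or 152 to 445 counts. All treated marrow libraries lay above all vehicle ones. Its log2 fold change was 4.99 (SE 0.42, 95% confidence interval 4.07 to 5.91, adjusted p = 2.3e-06), a 31.8-fold rise.

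Kidney gave nearly the same size of change from a similar start. Vehicle kidneys had 0.373, 0.267, 0.432, 0.242 and 0.162 CPM of Eda2r and treated kidneys 10.9, 7.47, 7.80, 9.51 and 11.3 CPM. The change was 4.98 on the log2 scale (SE 0.23, interval 4.50 to 5.45, adjusted p = 2.3e-10), and no treated library came near a vehicle one. The difference between the tissues in this change was 0.08 on the log2 scale (interval -0.89 to 1.04, adjusted p = 0.936). Within the treated groups, the libraries with low summed adipocyte markers also had low Eda2r. In treated marrow the adipocyte sums were 2284, 1046, 2336, 2461 and 492 CPM in replicates 1 to 5. In treated kidney they were 176, 60.4, 74.1, 95.7 and 162 CPM, against 20.1 to 41.7 CPM in vehicle kidney. Endothelial sums in treated kidney, at 364, 318, 327, 374 and 450 CPM, were likewise lowest in replicates 2 and 3, where Eda2r was lowest, and in treated marrow they were 417, 273, 312, 523 and 314 CPM. Summed skeletal muscle markers in treated marrow were 327, 290, 701, 39.5 and 310 CPM, against 9.52 to 93.0 CPM in vehicle marrow, with 4 of 5 tested called up. Replicate 4, with the fewest, had 9.90 CPM of Eda2r, and replicate 3, with the most, had 10.1 CPM. The part of adipocyte, endothelial and muscle RNA in the Eda2r values was not tested.

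Tnfrsf10b (ENSMUSG00000022074, chr14:69767472-69784411, plus strand), the TRAIL receptor with a death domain, also rose in both tissues. Vehicle marrow had 1.71, 2.07, 2.52, 1.88 and 2.11 CPM and treated marrow 8.47, 4.58, 7.23, 10.6 and 5.26 CPM. On the log2 scale the change was 1.81 (SE 0.24, interval 1.29 to 2.33, adjusted p = 7.9e-05), or 3.51-fold. The spread was wide among the treated marrow libraries, with an SD of 2.45 around a mean of 7.23 CPM, but the lowest of them was still above every vehicle library. The lowest 2 of them, replicates 2 and 5, were also those with the lowest adipocyte marker sums, and the highest 2, replicates 4 and 1, had the highest endothelial sums. The part of either cell type in the values was not tested.

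In kidney the treated libraries were close together. Tnfrsf10b was at 2.31, 2.67, 2.20, 1.97 and 2.39 CPM in vehicle and at 6.42, 5.25, 5.43, 5.23 and 5.40 CPM with oxaliplatin. The rise was 1.26 on the log2 scale (SE 0.14, interval 0.96 to 1.56, adjusted p = 1.1e-05), or 2.40-fold. The vehicle means of the tissues were alike, at 2.06 ± 0.304 and 2.31 ± 0.255 CPM (SD, n = 5 each). The marrow change exceeded the kidney change by 0.61 on the log2 scale (SE 0.28, interval 0.03 to 1.20), which did not pass over all genes (adjusted p = 0.108). It passed without treated marrow replicate 2 (0.75, adjusted p = 0.0358) or replicate 5 (0.75, adjusted p = 0.0378).

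**Figure D2:**
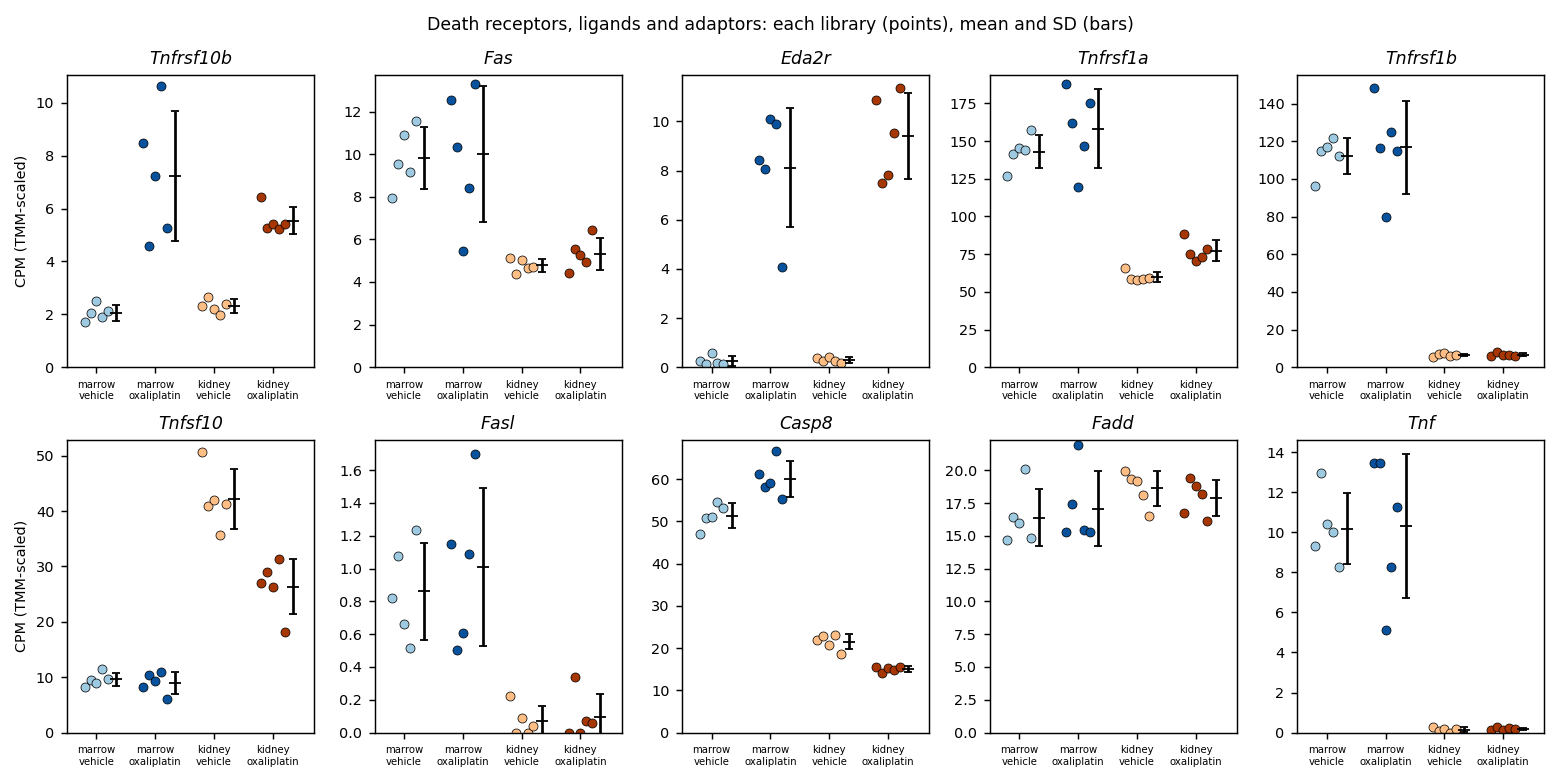
Level of each gene in CPM (y axis, from 0, a scale of its own in each panel) in every library (points), with the mean and SD of 5 libraries (bars), for vehicle and oxaliplatin in marrow and kidney. Eda2r and Tnfrsf10b separate completely in both tissues, Tnfsf10 and Casp8 are lower in treated kidney, and Fas overlaps in both.

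Fas (ENSMUSG00000024778, chr19:34290666-34327772, plus strand), the receptor of Fas ligand, was not called in either tissue. In marrow it was at 7.94, 9.54, 10.9, 9.15 and 11.6 CPM in vehicle and at 12.6, 10.3, 5.45, 8.39 and 13.3 CPM with oxaliplatin. The treated libraries spread on both sides of the vehicle ones, and the log2 fold change was 0.03 (SE 0.22, interval -0.44 to 0.49, adjusted p = 0.943). In kidney it was at 5.11, 4.38, 5.01, 4.67 and 4.70 CPM in vehicle and at 4.41, 5.56, 5.25, 4.95 and 6.42 CPM with oxaliplatin. Here too the groups overlapped, with a log2 fold change of 0.16 (SE 0.13, interval -0.12 to 0.44, adjusted p = 0.400). The upper ends of these intervals lie below the lower ends for Tnfrsf10b and Eda2r in the same tissue.

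The treated marrow library with the lowest Fas, replicate 3, was also the lowest for Tnf, Tnfrsf1a and Tnfrsf1b. Its summed neutrophil markers were 7903 CPM and those of replicate 4 were 9048 CPM, against 16294 to 20523 CPM in the other treated marrow libraries and 14455 to 17596 CPM in vehicle. Replicate 3 also had the lowest macrophage sum of the treated marrow libraries, 1235 CPM against 1893 to 2803 CPM, and the highest muscle sum, 701 CPM. Replicate 4 had 8.39 CPM of Fas, 8.28 CPM of Tnf, 147 CPM of Tnfrsf1a and 125 CPM of Tnfrsf1b. Of these only Tnfrsf1b lay outside the vehicle range, above its 96.3 to 122 CPM. The part of these differences in cell content in those values was not tested. None of the 10 neutrophil markers was called in marrow by edgeR or by DESeq2, or had an unadjusted p under 0.05.

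The bases before the annotated start of Eda2r and Fas are shown because both are known p53 targets and gave unlike readouts. RefSeq windows (GRCm38.p6, 250 bases before to 50 after a start) were matched by symbol for 9 of the 10 members, all but Tnfrsf10b. Printed are the 250 bases that precede the start of Eda2r, chrX:97377210-97377459 on the minus strand, and of Fas, chr19:34290409-34290658 on the plus strand, from 5′ to 3′, with a TATAAA box in capitals.
Eda2r: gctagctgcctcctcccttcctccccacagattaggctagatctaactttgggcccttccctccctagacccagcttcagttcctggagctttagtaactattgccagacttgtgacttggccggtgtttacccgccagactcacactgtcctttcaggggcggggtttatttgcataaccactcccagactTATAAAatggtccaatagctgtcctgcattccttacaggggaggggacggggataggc
Fas: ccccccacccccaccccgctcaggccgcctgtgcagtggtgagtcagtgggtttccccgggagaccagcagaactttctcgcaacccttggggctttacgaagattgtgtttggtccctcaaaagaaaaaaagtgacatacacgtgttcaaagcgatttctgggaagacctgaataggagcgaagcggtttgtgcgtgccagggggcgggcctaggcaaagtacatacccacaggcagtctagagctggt
The windows were searched on both strands for a single copy of the p53 decamer consensus, the kappaB consensus bound by NF-kB, the interferon element (GAAA, any 2 bases, GAAA) and TATAAA. Bases outside the windows were not searched, so the absence of a motif here does not show that a gene lacks such a site. Eda2r held TATAAA at -58 from its start and Tnf at -29, a box present in 13.6% of 32851 windows. The p53 decamer was in the window of Fasl at -115 (8.36% of all windows) and the interferon element, on the opposite strand, in that of Tnfrsf1b at -10 (3.44%). The other members' windows, that of Fas included, held none of these letters, and no member's window held the kappaB consensus, which 8.46% of all windows did.

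Tnfrsf1a (ENSMUSG00000030341, chr6:125349362-125362484, plus strand), the death-domain receptor of TNF, was the most abundant member per kilobase of exon in all 4 groups. In kidney it was at 65.6, 58.3, 57.9, 58.7 and 59.0 CPM in vehicle and at 88.3, 75.3, 70.6, 73.4 and 78.6 CPM with oxaliplatin. The groups did not overlap, and the log2 fold change of 0.37 (SE 0.07, interval 0.22 to 0.51) had an adjusted p of 8.9e-04, but at 1.29-fold it stayed under the fold threshold. In marrow the levels were 127 to 158 CPM in vehicle and 120 to 188 CPM with oxaliplatin, which overlapped (log2 fold change 0.15, interval -0.11 to 0.40, adjusted p = 0.372).

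Tnfrsf1b (ENSMUSG00000028599, chr4:145213463-145246870, minus strand), the TNF receptor that is found mainly on immune and endothelial cells, was much higher in marrow than in kidney and was not called in either. In marrow it was at 112 ± 9.57 CPM in vehicle and 117 ± 24.6 CPM with oxaliplatin (SD, n = 5 each), a log2 fold change of 0.06 (interval -0.24 to 0.35, adjusted p = 0.796). In kidney it was at 6.47 ± 0.719 and 6.58 ± 0.764 CPM, a log2 fold change of 0.03 (interval -0.24 to 0.29, adjusted p = 0.899). Both intervals exclude a change of 1.5-fold. The log2 ratio of Tnfrsf1a to Tnfrsf1b within a library went from 3.20 ± 0.225 to 3.54 ± 0.232 in kidney, a difference of 0.34 that did not pass an exact two-sided permutation test (p = 0.0714, adjusted p = 0.214 over 6 ratios). In marrow the same ratio was 0.35 ± 0.0948 in vehicle and 0.45 ± 0.161 with oxaliplatin (exact permutation p = 0.246, adjusted p = 0.369).

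Of the ligands, Tnfsf10 (ENSMUSG00000039304, chr3:27317028-27342427, plus strand), which encodes TRAIL, fell in kidney, where its receptor Tnfrsf10b rose. Vehicle kidneys had 50.7, 41.0, 42.0, 35.7 and 41.4 CPM and treated kidneys 27.1, 29.0, 26.2, 31.3 and 18.1 CPM. All treated libraries lay below all vehicle ones. The log2 fold change was -0.68 (SE 0.13, interval -0.95 to -0.40, adjusted p = 0.0013), or 1.60-fold lower. Without treated kidney replicate 5, which had the lowest value, the log2 fold change was -0.56 (adjusted p = 2.7e-04), under the fold threshold, and with library size alone as the scaling it was -0.55 (adjusted p = 0.0038).

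In marrow Tnfsf10 was at 8.23, 9.54, 9.01, 11.5 and 9.68 CPM in vehicle and at 8.21, 10.3, 9.25, 10.9 and 6.04 CPM with oxaliplatin. These overlapped, with a log2 fold change of -0.10 (interval -0.46 to 0.26, adjusted p = 0.691). The difference between the tissues was 0.64 on the log2 scale (SE 0.22, interval 0.18 to 1.10, adjusted p = 0.0325). This call depended on single libraries. It was lost without vehicle marrow replicate 1 (0.62, adjusted p = 0.0502) or 3 (0.62, 0.0561) and without treated marrow replicate 2 (0.60, 0.0538) or 4 (0.57, 0.0586). It was likewise lost without vehicle kidney replicate 1 (0.56, adjusted p = 0.0712) or treated kidney replicate 5 (0.53, adjusted p = 0.0609).

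Fasl (ENSMUSG00000000817, chr1:161780689-161788495, minus strand), made mainly by activated T cells and natural killer (NK) cells, was scarce. In marrow it had 26, 37, 21, 18 and 38 counts in vehicle and 40, 16, 26, 49 and 63 counts with oxaliplatin, or 0.862 ± 0.295 and 1.01 ± 0.480 CPM. The log2 fold change of 0.23 has an interval from -0.58 to 1.04 (adjusted p = 0.683), so a rise of 1.5-fold lies within it. Summed T cell markers were 105 to 139 CPM in vehicle and 48.6 to 79.4 CPM with oxaliplatin, with 2 of 9 called, both down. These were Cd4, from a mean of 78.7 to 28.5 CPM, and Cd2, from 11.7 to 4.39 CPM, which together make up most of the vehicle sum, while the other 7 were not called by edgeR and DESeq2 called 1 of the list up. NK markers were 50.6 to 69.0 and 42.6 to 82.5 CPM, with 1 of 9 called up and 3 down. Set against the mean of these markers within each library, Fasl differed by 0.44 on the log2 scale (exact permutation p = 0.246, adjusted p = 0.369). The log2 ratio of Fas to Fasl in marrow differed by -0.18 (exact permutation p = 0.603, adjusted p = 0.603).

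In kidney Fasl had 6, 0, 2, 0 and 1 counts in vehicle and 0, 10, 0, 2 and 2 counts with oxaliplatin. It was below the filter and was not tested. Tnf (ENSMUSG00000024401, chr17:35199381-35202007, minus strand), the inflammatory cytokine made largely by macrophages and other myeloid cells, had 8, 2, 4, 0 and 4 counts in vehicle kidney and 4, 8, 3, 6 and 6 counts in treated kidney, and was not tested there either. A count of 0 in a kidney library allows up to 0.108 to 0.121 CPM.

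In marrow Tnf was well above that, at 9.34, 13.0, 10.4, 10.0 and 8.25 CPM in vehicle and at 13.5, 13.5, 5.10, 8.28 and 11.3 CPM with oxaliplatin. The treated libraries spread to both sides of the vehicle ones. The log2 fold change was 0.02 (SE 0.24, interval -0.50 to 0.53, adjusted p = 0.969). Summed macrophage markers were 911 to 1278 CPM in vehicle marrow and 1235 to 2803 CPM in treated marrow, with 5 of 9 called up. The part of the macrophage content in the Tnf values was not tested.

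Casp8 (ENSMUSG00000026029, chr1:58795374-58847503, plus strand), the initiator caspase, was lower in treated kidney and slightly higher in treated marrow, in neither case beyond the fold threshold. Vehicle kidneys had 21.8, 23.0, 20.8, 23.2 and 18.7 CPM and treated kidneys 15.6, 14.0, 15.2, 14.9 and 15.6 CPM. No libraries overlapped. This was a log2 fold change of -0.51 (SE 0.08, interval -0.69 to -0.34, adjusted p = 2.2e-04), or 1.43-fold lower. Summed macrophage markers in kidney were 110 to 140 CPM in vehicle and 64.1 to 76.2 CPM with oxaliplatin, with 5 of the 7 tested called down and Mrc1 called up. The part of the macrophage content in the Casp8 and Tnfsf10 values was not tested.

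Marrow had 47.1, 50.9, 51.0, 54.7 and 53.2 CPM of Casp8 in vehicle and 61.2, 58.1, 59.2, 66.7 and 55.3 CPM with oxaliplatin. The groups were narrowly apart, and the log2 fold change of 0.23 (SE 0.08, interval 0.05 to 0.40, adjusted p = 0.0446) is a 1.17-fold difference. The adjusted p went above 0.05, to at most 0.121, without vehicle replicate 1, 2, 3 or 5 or treated replicate 1, 2 or 4. The interaction test asked whether the changes in the tissues differ, which does not test the sign of either. Marrow minus kidney was 0.80 on the log2 scale (SE 0.11, interval 0.56 to 1.04, adjusted p = 1.5e-05), and this passed with any 1 of the 20 libraries left out (0.77 to 0.87). Of the 10 members, 2 (Casp8 and Tnfsf10) differed between the tissues in this test, where 30.1% of all genes did.

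Cflar, the inhibitor of Casp8 in the receptor complex, was not called in either tissue (log2 fold change 0.15, adjusted p = 0.287 in marrow and -0.01, adjusted p = 0.940 in kidney). The log2 ratio of Casp8 to Cflar in kidney was -2.43 ± 0.137 in vehicle and -2.93 ± 0.141 with oxaliplatin (SD, n = 5 each). The difference of -0.50 gave p = 0.00794 by exact permutation, which is the lowest value possible with 5 against 5 mice, and an adjusted p of 0.0476 over 6 ratios. With any 1 of the 10 kidney libraries left out, the difference was -0.55 to -0.45 (adjusted p = 0.0952 each time, by exact permutation). That value comes from the smallest p possible with 1 mouse fewer, so these runs cannot decide whether the result holds. In marrow the difference was 0.08 (exact permutation p = 0.548, adjusted p = 0.603). Fadd (ENSMUSG00000031077, chr7:144577318-144582463, minus strand), the adaptor between receptor and Casp8, was at 16.4 ± 2.19 and 17.1 ± 2.86 CPM in marrow (log2 fold change 0.06, interval -0.23 to 0.35, adjusted p = 0.781). In kidney it was at 18.6 ± 1.37 and 17.9 ± 1.38 CPM (log2 fold change -0.06, interval -0.24 to 0.12, adjusted p = 0.627). Its exons share 239 bases with the antisense gene Faddos, and whether the counting used strand is not given in the sources used here, so reads of the pair cannot be told apart.

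Levels were compared between genes as CPM per kilobase of exon. In vehicle marrow the order was Tnfrsf1a (55.2), Tnfrsf1b (29.4), Casp8 (17.8), Tnf (6.22), Fas (4.76), Fadd (4.20), Tnfsf10 (1.82), Fasl (0.445), Tnfrsf10b (0.378) and Eda2r (0.0431). The ranges of Tnf and Fas, of Fas and Fadd, and of Fasl and Tnfrsf10b overlapped over the 5 libraries, and the other neighbours were apart. With oxaliplatin Eda2r reached 1.38 and Tnfrsf10b 1.33, level with each other and with Tnfsf10 at 1.70, while Fasl was last at 0.521.

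Vehicle kidney had another order: Tnfrsf1a (23.1), Tnfsf10 (8.00), Casp8 (7.43), Fadd (4.77), Fas (2.32), Tnfrsf1b (1.69), Tnfrsf10b (0.424), Tnf (0.0866), Eda2r (0.0501) and Fasl (0.0362). Tnfsf10 and Casp8 overlapped, as did Tnf with Eda2r and Eda2r with Fasl. TRAIL transcripts were thus the most abundant of the 3 ligands in kidney, while Tnf was in marrow. In treated kidney Tnfsf10 (5.00) had a range that overlapped those of Casp8 (5.21) and Fadd (4.57), and Eda2r rose to 1.60, within the range of Tnfrsf1b (1.72) and above Tnfrsf10b (1.02).

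**Figure D3:**
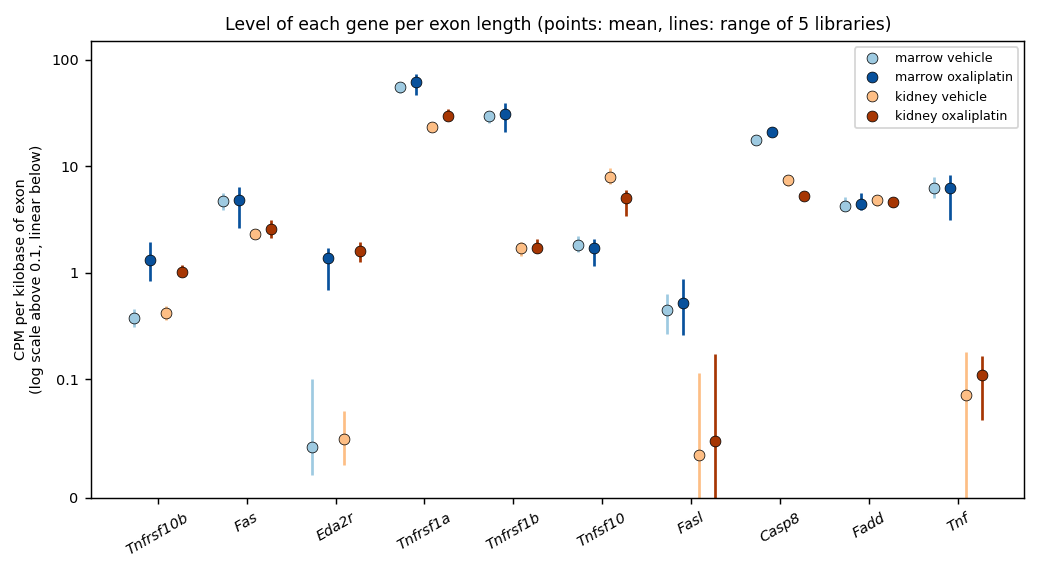
Mean level of each gene in CPM per kilobase of exon (y axis, logarithmic above 0.1 and linear below) in the 4 groups, with lines from the lowest to the highest of 5 libraries. Tnfrsf1a is highest in all 4 groups, from 23.1 to 61.1, and Eda2r moves from 0.0431 to 1.38 in marrow and from 0.0501 to 1.60 in kidney.

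The genes whose pattern was most like that of a receptor were found by the mean absolute difference in log2 CPM over the 20 libraries. The vehicle mean of the tissue was subtracted first. Compared were 13783 genes tested in both tissues whose mean over vehicle and treated libraries together passed a floor in each. Eda2r passed it only through its treated libraries, as its vehicle means were 0.254 CPM in marrow and 0.295 CPM in kidney. Because vehicle was subtracted, genes with changes of like size lie near each other, so nearness largely follows the size of the change. For Eda2r the nearest was Cdkn1a, the cell cycle inhibitor p21, at a mean difference of 0.574, and then Phlda3 at 0.955 and Ppp1r3c at 0.973. For Tnfrsf10b they were Nid1, a basement membrane protein (0.189), Ccng1, the cyclin G1 gene (0.202), and Mcam, a cell adhesion molecule (0.224). For Fas, which hardly moved, they were Snrk (0.102), Ncoa1 (0.110) and Cask (0.110). Cdkn1a, Phlda3 and Ccng1 are known p53 targets. Their log2 fold changes were 4.37, 3.99 and 1.53 in marrow and 5.25, 3.03 and 1.21 in kidney. Those of Nid1, Mcam and Ppp1r3c were 1.499, 1.917 and 4.058 in marrow and 1.37, 0.857 and 3.338 in kidney.

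A list of 10 p53 reference genes gives the setting of these receptors. In marrow 7 of 10 rose and none fell, with a median log2 fold change of 0.84, led by Cdkn1a, Phlda3, Zmat3 (2.80, adjusted p = 2.7e-08) and Ccng1. In kidney 8 of 10 rose and none fell, with a median of 1.07, and Zmat3 had 1.51 (adjusted p = 2.7e-10). As values set side by side, with no test of the differences, Eda2r lay above all 10 in marrow and below only Cdkn1a in kidney, Tnfrsf10b lay just above Ccng1 in both tissues, and Fas lay below the list's median in both.

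In a list of 10 other genes at the receptor level, which holds death-domain and decoy receptors together with Tnfrsf12a, which is neither, and the adaptor Edaradd, 2 rose and 2 fell in marrow, with a median of 0.30. Tnfrsf11b, the decoy receptor osteoprotegerin, rose by 2.81 on the log2 scale (adjusted p = 0.00118) and Tnfrsf12a, the receptor of TWEAK, by 0.83 (adjusted p = 0.0146). Tnfrsf11b had only 4 to 17 counts per vehicle marrow library, and the groups of Tnfrsf12a overlapped. Ngfr fell by 1.28 (adjusted p = 0.0203) and Edaradd, the adaptor of the ectodysplasin receptor Edar, by 1.26 (adjusted p = 0.00126). Treated marrow libraries had 4 to 20 counts of Ngfr. In kidney none of the 9 tested was called by edgeR or DESeq2, 0 had an unadjusted p under 0.05, and the median was 0.10. Of 10 other ligands and shedding enzymes, 3 were called up in marrow and none was called down, with a median of -0.11. Tnfsf11, which encodes RANKL, rose by 2.17 (adjusted p = 6.2e-05) and Rhbdf1 by 1.18 (adjusted p = 3.0e-04). Eda, the ligand gene of Eda2r, rose by 0.77 (adjusted p = 0.0194), with overlapping groups. The shedding enzyme Adam10 had a log2 fold change of -0.46 in marrow (adjusted p = 0.0024), under the fold threshold. All its treated marrow libraries lay below all vehicle ones. In kidney 1 of 8 was called, Ltb at -1.24 (adjusted p = 0.0315), with overlapping groups and 5 to 38 counts per library. Under the fold threshold there, with an adjusted p under 0.05, were Tnfsf12 (0.55, adjusted p = 0.00154), Eda (0.53, adjusted p = 0.0493) and Rhbdf2 (0.37, adjusted p = 0.00933).

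None of the 14 adaptors and regulators of the receptor complex was called in either tissue by edgeR or DESeq2, with medians of -0.13 in marrow and -0.02 in kidney. At an unadjusted p under 0.05 in edgeR there were 3 in marrow and 6 in kidney. Those with an adjusted p under 0.05, none of which reached 1.5-fold, were Birc2 (-0.52, adjusted p = 4.7e-04) and Rnf31 (-0.45, adjusted p = 0.00368) in marrow and Tradd (-0.41, adjusted p = 0.00607) and Otulin (-0.38, adjusted p = 0.00327) in kidney. Of 7 genes of the downstream death machinery, Ripk3, the kinase of necroptosis, rose in marrow by 0.94 (adjusted p = 6.7e-05), and none was called in kidney, where 2 had an unadjusted p under 0.05 and DESeq2 called 1 up.

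A list of 12 NF-kB genes known to respond to TNF had 3 rises and 1 fall in marrow, with a median of 0.30. Ccl2, a monocyte chemokine, rose by 2.85 (adjusted p = 1.2e-04), Icam1 by 0.68 (adjusted p = 3.4e-04) and Traf1 by 0.67 (adjusted p = 0.00443), and Tnfaip2 fell by 0.80 (adjusted p = 6.4e-05). Ccl2 had 10 to 19 counts per vehicle marrow library, and the groups of Traf1 overlapped. Of the 11 tested in kidney none was called by edgeR or DESeq2, 5 had an unadjusted p under 0.05, and the median was 0.11. Those with an edgeR adjusted p under 0.05 there, none of which reached 1.5-fold, were Icam1 (0.53, adjusted p = 8.7e-04), Nfkb1 (0.21, adjusted p = 0.0277) and Traf1 (-0.57, adjusted p = 0.0482). Over all tested genes, 23.3% were called in marrow (11.6% up and 11.8% down) and 11.5% in kidney (7.68% up and 3.81% down). The lists were chosen with earlier results of these data known, so their shares beside these are a description and not a test.

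**Figure D4:**
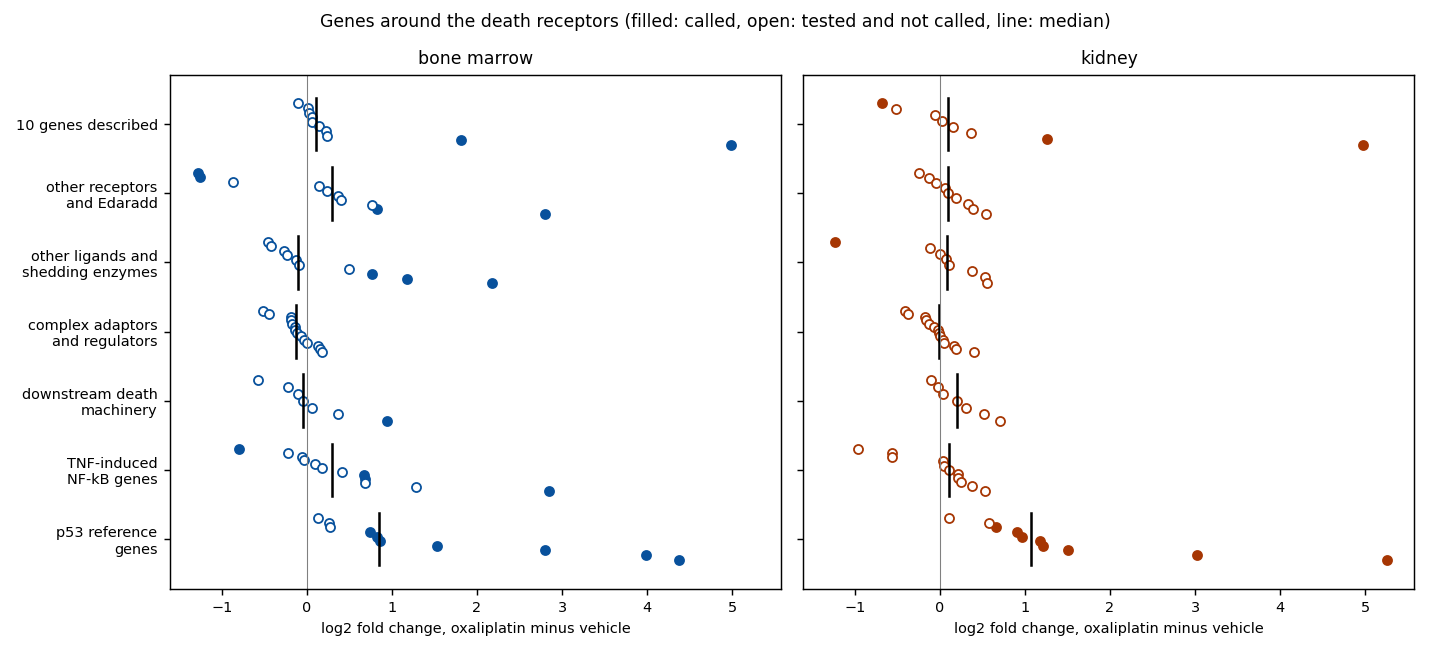
Log2 fold change of oxaliplatin against vehicle (x axis) for each tested gene of the 10 members and of 6 lists around them, in marrow (left) and kidney (right); filled points were called, open points were not, and the black line is the list's median. The p53 reference genes have medians of 0.84 and 1.07, and the complex adaptors and regulators lie close to 0 with none called.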

How the data were processed

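Bone marrow and kidney were measured by bulk RNA-seq in 20 libraries. The deposited values are unnormalized counts, with a table for each tissue. Per the authors, reads were aligned with STAR to the Ensembl mouse genome, and those with a unique and unambiguous place were counted with Partek Flow. The submitters' processing notes name STAR, Salmon and featureCounts on the mouse genome. Strand use is not given in the sources used here, nor is whether both mates of a pair were counted (even values made up 67.2% to 72.8% of counts from 1 to 20), so a floor of 3 counts may stand for fewer fragments. The paper and the labels describe different library kits. RNA integrity numbers were above 7.

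Lines repeating an identifier (287 of 55774) or lacking a value (1) were dropped. For each tissue, edgeR 4.0.16 in R 4.3.3 with limma 3.58.1 was used: filterByExpr with a minimum count of 10, TMM factors, and the quasi-likelihood F test in its robust form, which is two-sided. Treatment was the sole term. The tissue difference was the interaction in 1 fit of 20 libraries over 24321 genes, of which 7316 (30.1%) had an adjusted p under 0.05; it differs slightly from the subtraction of the separate fits. Ratios used log2 CPM with a prior count of 2 and an exact two-sided test over all splits of 5 and 5 (scipy 1.17.1), adjusted over 6 ratios. Fasl was below the filter in kidney and gave no ratio there. Positions and exon lengths came from the GENCODE mouse annotation (GRCm38). Alternatives included DESeq2 1.42.0, other scalings and filters, a replicate block and leaving out each library.

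Named were all 10 members and the called genes of each list (at most 4 per list and tissue by size). The 3 genes nearest to Tnfrsf10b, Fas and Eda2r were named as well. Cflar, Mrc1, Faddos, Ripk3 in kidney and the list genes under 1.5-fold were named after their values were seen. The members and lists were chosen with earlier results of these data known. No 2 libraries of a group were alike within sampling noise (smallest chi-square per degree of freedom 7.51).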

Additional observations from a re-analysis of the deposited data

Results flagged for a closer look

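Within groups of 5, single libraries stood apart in 4 of 52 groups examined, where chance alone gives about 1 in 20. Vehicle marrow replicate 3 had 0.599 CPM of Eda2r, above 0.116 to 0.253 CPM in the other vehicle marrow libraries. Without it, the marrow log2 fold change of Eda2r was 5.57 (edgeR adjusted p = 1.7e-06) and the difference between the tissues 0.65 (adjusted p = 0.324). Treated kidney replicate 1 had 6.42 CPM of Tnfrsf10b, above 5.23 to 5.43 CPM in the others. Vehicle kidney replicate 1 had 65.6 CPM of Tnfrsf1a, above 57.9 to 59.0 CPM in the others and below every treated kidney. Treated kidney replicate 2 had 10 counts of Fasl, or 0.337 CPM, against 0 to 2 counts in the other treated kidneys.

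The response differed between the tissues for 2 members in edgeR's interaction test. Marrow minus kidney was 0.80 on the log2 scale for Casp8 (adjusted p = 1.5e-05) and 0.64 for Tnfsf10 (adjusted p = 0.0325), and the latter was lost without 1 of 6 libraries named with the Tnfsf10 values.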

How the results depend on the processing

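Eda2r and Tnfrsf10b were called in both tissues under every alternative that could test them, with log2 fold changes of 4.80 to 5.57 and 1.63 to 1.97 in marrow and of 4.83 to 5.14 and 1.21 to 1.39 in kidney. With at least 10 counts in every sample, Eda2r could not be tested and 1 marrow member was called. Calls over all genes were 4725 to 5727 in marrow, 1761 to 2424 in kidney and 6495 to 8028 for the interaction when single libraries were left out. Without a fold threshold, 5679 kidney genes passed, and DESeq2's Wald test called 5613 in marrow and 2391 in kidney. With library size alone, the share of calls that were higher went from 49.6% to 63.4% in marrow and from 66.8% to 82.7% in kidney, and the median of all genes moved to 0.11 and 0.16. The cause of each change was not tested.

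Replicate numbers were not used to pair samples. The deviations of same-numbered samples from their group means had correlations of -0.154 to 0.228. Samples of unlike number were not compared in this way. These values therefore cannot show whether same-numbered kidney and marrow libraries come from the same mouse. With a block for such shared mice, the interaction of Casp8 was 0.79 (edgeR adjusted p = 4.4e-04) and that of Tnfsf10 0.63 (adjusted p = 0.0131). With a replicate block, 4968 genes were called in marrow, 2017 in kidney and 6710 for the interaction, with 2 and 3 members called as before, and marrow Casp8 had an adjusted p of 0.0904 (0.137 with no filter beyond 1 count). The kidney ratio of Casp8 to Cflar was -0.50 with an adjusted p of 0.188 by sign flips in the block, whose smallest p is 0.0625. When single libraries were left out it was -0.55 to -0.45, each with an adjusted p of 0.0952, from the smallest p that 9 mice allow.

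The sign of uncalled members near 0 turned. In the replicate block it turned for marrow Fas (-0.024) and Tnf (-0.047) and for the Fasl interaction (0.0064). With a covariate of Y-linked genes it turned for marrow Fas (-0.077) and Tnf (-0.069), and with library size alone for marrow Tnfsf10 (0.056) and kidney Fadd (0.070). Leaving out single libraries, the marrow ranges were -0.067 to 0.18 for Fas, -0.043 to 0.17 for Tnfrsf1b, -0.18 to 0.054 for Tnfsf10, -0.049 to 0.14 for Fadd, -0.098 to 0.19 for Tnf and -0.0034 to 0.14 for the ratio of Casp8 to Cflar. Kidney Tnfrsf1b ranged from -0.047 to 0.083. The interactions ranged from -0.16 to 0.054 for Fas, -0.11 to 0.65 for Eda2r, -1.27 to 1.29 for Fasl and -0.77 to 0.026 for Tnf. Counts were few for Fasl in both tissues, Tnf in kidney and Eda2r in vehicle; counting error and the spread between mice were not separated.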
